A study of Mus musculus with 10 samples.

Results

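The genes described here encode the machinery that decides whether a cell lives or dies by apoptosis: the BCL2 family, the death receptors with their ligands and adaptors, the caspases with the apoptosome, and the inhibitor of apoptosis (IAP) proteins with their antagonists. They were taken by symbol from a fixed list of 34 names, and all 34 had a row among the 35725 gene rows of the deposited table. Eosinophils, the granulocytes of allergic airways, were isolated by flow cytometry from male mouse lungs and gave 5 P2ry14-null libraries and 5 wild-type (WT) libraries of the strain C57BL/6J. The product of P2ry14 is a receptor that couples to Gi and binds UDP-sugars. Every mouse of both groups had been given 50 µg ovalbumin and 20 µg Aspergillus oryzae protease by the oropharyngeal route for sensitization, received a 1% ovalbumin aerosol 7 days after the last dose, and was sampled 16 h later, so no unchallenged eosinophils stand beside them. The ages of the mice, the cell types in which the null allele acts and whether each library came from its own mouse are not stated in the labels. P-values therefore measure the spread between these libraries, which may be technical.

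In the mitochondrial route of apoptosis, BH3-only proteins sense stress and either block the pro-survival BCL2 proteins or activate BAX and BAK, which open the outer mitochondrial membrane. Cytochrome c then assembles APAF1 and caspase-9 into the apoptosome. In the other route, ligands such as FAS ligand or TRAIL bind death receptors, which recruit FADD and caspase-8. IAP proteins hold caspases and receptor signals in check. Eosinophils in tissue are short-lived unless cytokines such as IL-5 keep them alive, and MCL1 and BCL-XL are known survival proteins of these cells.

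P2ry14 itself stood at 190 to 229 counts per 1000000 reads (CPM) in WT and 21.8 to 24.2 CPM in P2ry14-null libraries. Libraries held 67.2 to 185 M reads (M, 1000000 reads). The 11 eosinophil markers checked (among them Siglecf, Ccr3 and Prg2) summed to 4113 to 4792 CPM in WT and 4307 to 4640 CPM in P2ry14-null libraries. P2ry14-null library 2 stood apart in genes of other lung cells: 6 alveolar macrophage markers summed to 2162 CPM there and to between 727 and 998 CPM in the other 9 libraries, and 4 lung epithelial markers to 60.8 CPM there against 4.13 to 22.3 CPM. The 6 mast cell and basophil markers summed to 35.4 to 50.0 CPM in P2ry14-null and 51.7 to 70.9 CPM in WT, with no overlap, and none of them passed the test. Most of that sum was Hdc, and the other 5 markers summed to 10.3 to 13.4 CPM in P2ry14-null and 12.4 to 15.3 CPM in WT, which overlap (a split made after seeing the data). Neutrophil markers (7 genes, led by Retnlg) summed to 3555 to 4481 CPM in WT and 3536 to 5285 CPM in P2ry14-null. Most of that sum was Retnlg, which averaged 3782 CPM in WT and 4103 CPM in P2ry14-null. Of the 6 neutrophil markers tested, 0 had a log2 fold change (P2ry14-null minus WT) below 0, and the median was 0.29. By edgeR 3 had an unadjusted p under 0.05, beside 4.13% of all genes. These were Ly6g, S100a8 and Ngp, which averaged 1.24, 0.98 and 4.40 CPM in WT and 1.65, 1.97 and 6.35 CPM in P2ry14-null. The sums of the T and NK cell, B cell, and endothelium and fibroblast lists overlapped between the genotypes. Median log2 fold changes were 0.48 for endothelium and fibroblast and 0.92 for lung epithelium, with 2 genes each at that p. They were 0.63 for alveolar macrophages, 0.12 for T and NK cells, 0.04 for B cells and -0.53 for mast cells and basophils (2 at that p). For the eosinophil markers the median was -0.02, with 1 gene lower and 1 higher at that p. Prg3 was the lower one, averaging 6.29 CPM in WT and 4.68 CPM in P2ry14-null (log2 -0.43). Epx was the higher one, at 23.9 and 28.1 CPM (log2 0.23). Both lay far below Siglecf, Ccr3 and Prg2 (1282, 1369 and 813 CPM in WT), so the eosinophil sum hardly reflects them. These medians include P2ry14-null library 2. In the other P2ry14-null libraries the macrophage sums were 727 to 849 CPM, against 775 to 998 CPM in WT. The epithelial sums there were 4.13 to 15.9 CPM, against 10.9 to 22.3 CPM in WT. None passed adjustment. Of the markers checked, Marco was at 0 in 1 library. The part of these markers in the values of the apoptosis genes was not tested. In sorted bulk samples, fewer cells of a type and less RNA per cell cannot be told apart.

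None of the apoptosis and survival genes passed the test between genotypes. The low-count filter kept 32 of the 34, and edgeR's quasi-likelihood test, adjusted by Benjamini-Hochberg over 15586 genes, called 0 of the 32 (smallest adjusted p = 0.999), where it called 0.0385% of all genes tested (0.0128% higher and 0.0257% lower in P2ry14-null). At an unadjusted p under 0.05 there were 2, Birc3 lower and Fadd higher in P2ry14-null. This is 6.25% of the 32, beside 4.13% of all genes (2.67% lower and 1.46% higher), so the share lies near the background. DESeq2 also called 0 of them, against 0.118% of the genes for which it gave an adjusted p. In 0 of the 32 did the 5 P2ry14-null libraries lie wholly above or below the 5 WT libraries, which was the case for 0.648% of all genes. Of the 32, 20 had a log2 fold change below 0 (P2ry14-null minus WT), beside 48.8% of all genes. Their median was -0.03, and that of all genes tested 0.0025. Most of these values depended on single libraries: when 1 library was left out, the log2 fold change turned sign for 15 of the 32 and moved by over 1.5 times with the same sign for another 15, the exceptions being Birc3 and Fadd.

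The size of difference that these libraries leave room for was small for most of the genes. The unadjusted 95% interval of the fold change lay within 1.2-fold either way for 20 of the 32 genes, within 1.5-fold for 30 and within 2-fold for all 32. The 2 genes whose interval reached past 1.5-fold, Bik and Fasl, were also the least abundant of those tested, with 7 to 59 and 10 to 47 reads per library. Of the 2 genes that failed the filter, Bok, a BAX relative, had 2 to 9 reads per library, and Hrk, a BH3-only gene known from neurons, had 0 reads in all 10 libraries. A count of 0 allows up to 3 reads, or 0.0165 CPM in the deepest and 0.0445 CPM in the shallowest library, counting error only.

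**Figure D1:**
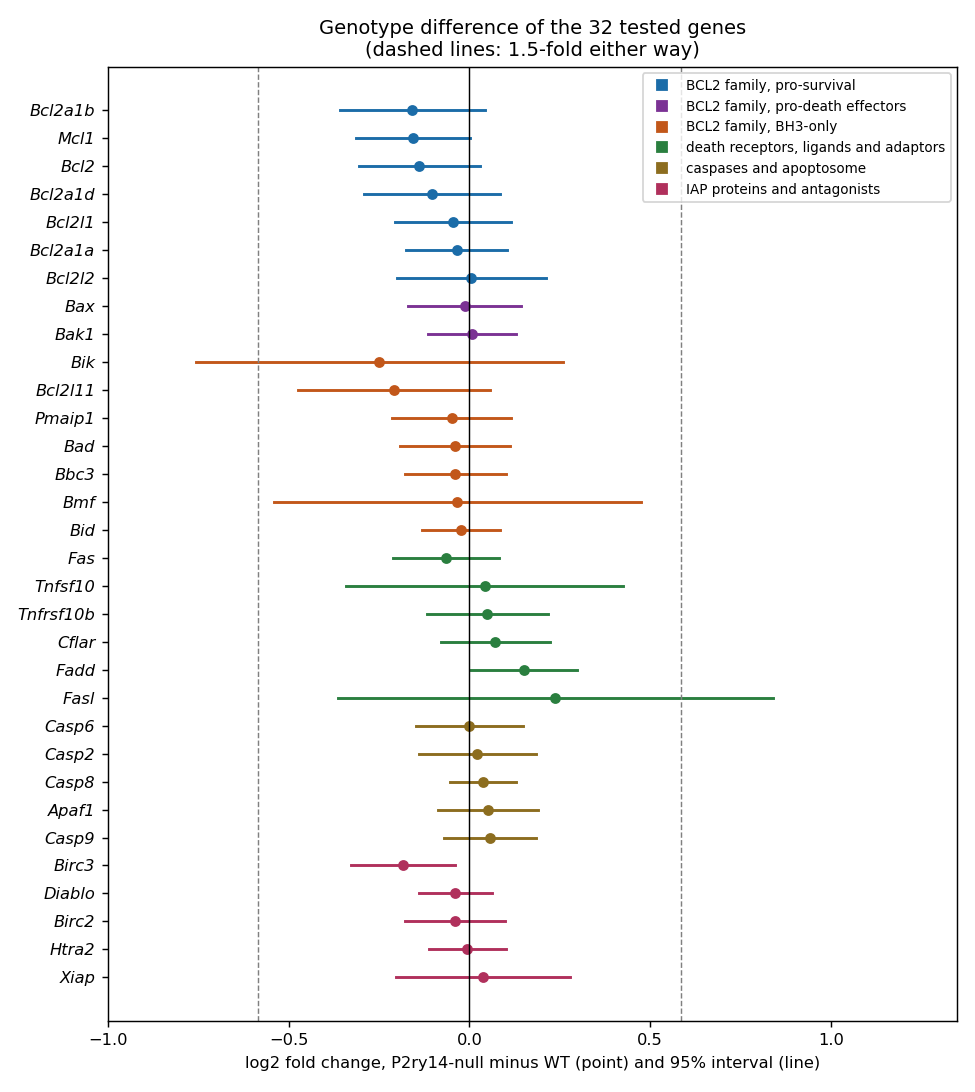
Log2 fold change between P2ry14-null and WT on the x axis (points) with unadjusted 95% intervals (lines) for the 32 genes tested, coloured and grouped by role; dashed lines mark 1.5-fold either way. Most intervals cross 0 and stay inside the dashed lines, while those of Bik and Fasl reach past them.

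Levels per kilobase differed between the genes far more than between the genotypes. RPKM (CPM per kilobase of annotated exon) averaged over all 10 libraries ran from 0.0206 for Bok, the lowest of the genes with any read, to 808 for Mcl1. Mcl1 and Bcl2a1b (408 RPKM) stood above all others, and neither range over the 10 libraries overlapped that of the next gene. Then came Bcl2a1a (80.9), Birc3 (70.3), Pmaip1 (70.3) and Bcl2a1d (65.9), and of these 4 each range overlapped that of its neighbour in the order. Casp8 (37.5), Fas (33.4), Bak1 (30.5) and Bax (29.5) followed, again with overlapping neighbours. At the low end Tnfsf10 had 0.282, Bik 0.151 and Fasl 0.106 RPKM. Over the whole order, 21 of 33 pairs of neighbours had overlapping ranges.

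**Figure D2:**
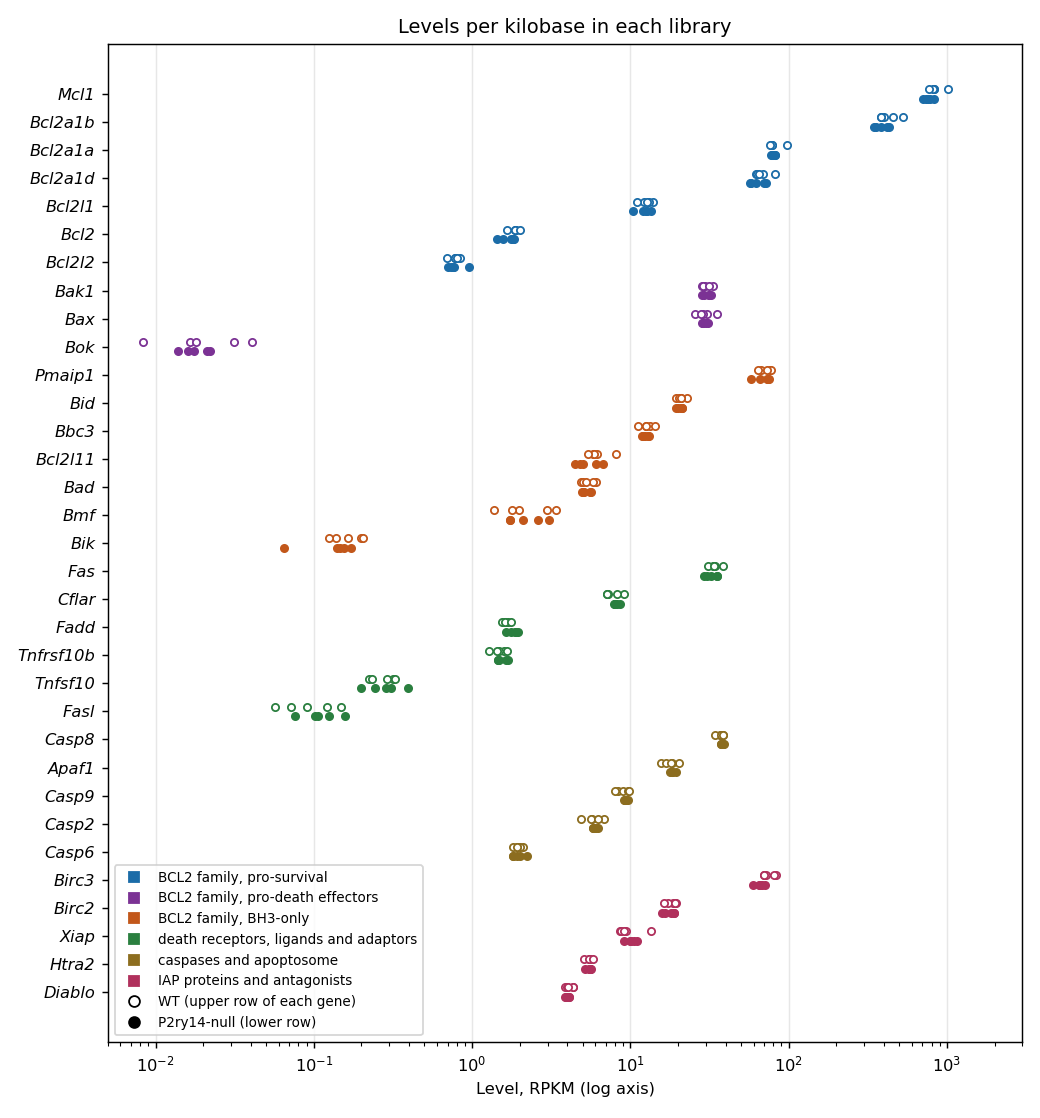
Level of each gene in RPKM (x axis, logarithmic) in the 5 WT (open points, upper row) and 5 P2ry14-null libraries (filled points, lower row), coloured by role; Hrk, with 0 reads, is not drawn. The genes span from 0.0206 to 808 RPKM on average, and the open and filled points of each gene overlap.

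The A1 proteins, the pro-survival relatives of BCL2 encoded by the Bcl2a1 genes, come from several near-identical mouse genes, and their coding starts show how close the copies are. The first 300 coding bases of the 3 listed copies follow, read from GENCODE release M21 on GRCm38 (the assembly behind mm10), with bases that differ from Bcl2a1b in capitals.
Bcl2a1b: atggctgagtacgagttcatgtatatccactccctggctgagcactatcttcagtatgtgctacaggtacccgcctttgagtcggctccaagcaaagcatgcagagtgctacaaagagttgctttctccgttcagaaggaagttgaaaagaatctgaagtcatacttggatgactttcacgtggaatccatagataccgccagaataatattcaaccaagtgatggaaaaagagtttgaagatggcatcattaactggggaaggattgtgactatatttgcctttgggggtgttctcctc
Bcl2a1a: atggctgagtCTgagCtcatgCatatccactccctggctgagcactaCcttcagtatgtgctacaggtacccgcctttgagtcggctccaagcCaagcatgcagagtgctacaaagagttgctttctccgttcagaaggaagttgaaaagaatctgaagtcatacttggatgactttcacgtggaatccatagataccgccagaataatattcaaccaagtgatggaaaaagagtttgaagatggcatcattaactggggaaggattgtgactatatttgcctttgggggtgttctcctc
Bcl2a1d: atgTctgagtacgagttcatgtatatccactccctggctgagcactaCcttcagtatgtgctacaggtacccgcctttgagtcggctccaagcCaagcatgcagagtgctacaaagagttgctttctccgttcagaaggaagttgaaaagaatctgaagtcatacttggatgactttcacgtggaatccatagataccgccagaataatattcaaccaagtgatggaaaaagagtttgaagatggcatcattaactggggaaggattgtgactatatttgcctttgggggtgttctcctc
The stretch lies in the first coding exon of each, at chr9:89199360-89199659 (plus strand) for Bcl2a1b, chr9:88957051-88957350 (plus) for Bcl2a1a and chr9:88731420-88731719 (minus) for Bcl2a1d. Within it, Bcl2a1a differs from Bcl2a1b at 6 bases and Bcl2a1d at 3. Over the 519 coding bases, Bcl2a1b is 97.9% identical to Bcl2a1a and 98.8% to Bcl2a1d, and Bcl2a1a is 98.7% identical to Bcl2a1d. Of all windows of 100 coding bases, 28.1% are the same in Bcl2a1b and Bcl2a1a, 30.2% in Bcl2a1b and Bcl2a1d and 54.3% in Bcl2a1a and Bcl2a1d. Because it is not given how reads with more than 1 match were counted, values of the single copies are uncertain. Their sum is given too, but it is also uncertain, as such reads may have been left out or counted more than once.

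Among the pro-survival BCL2 genes, 6 of 7 had a log2 fold change below 0, beside 48.8% of all genes tested, and none passed the test. With 1 library left out, Bcl2l1 (0.01) and Bcl2a1a (0.04) turned above 0 and Bcl2l2 (-0.07) turned below 0. Mcl1 (gene ID 17210; chromosome 3, 95658410 to 95663179, plus strand, mm10) encodes the labile survival protein that holds BAK and BIM. It was the most abundant of the 34 per kilobase. WT libraries 1 to 5 held 3464, 2828, 2816, 2801 and 2636 CPM of Mcl1, and P2ry14-null libraries 1 to 5 held 2430, 2521, 2829, 2613 and 2664 CPM. WT library 1 was the highest, and the other 4 WT libraries shared their range with P2ry14-null. Mcl1 averaged 2909 ± 320 CPM in WT and 2611 ± 151 CPM in P2ry14-null (SD, n = 5 each), a log2 fold change of -0.16 ± 0.07 (SE; exact permutation p = 0.079, two-sided). Without WT library 1 its log2 fold change was -0.09. Mcl1 lies 36.5 Mb from P2ry14 on the same chromosome. Tnfsf10 (log2 0.04) lies nearer to P2ry14, at 31.8 Mb, and Casp6 (-0.0004) farther, at 70.75 Mb. Whether distance from P2ry14 bears on these values was not tested.

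Bcl2a1b (gene ID 12045; chromosome 9, 89199273 to 89207838, plus strand) took 70.7 to 74.5% of the reads as counted for the A1 copies. Its WT libraries held 429, 329, 314, 374 and 313 CPM and its P2ry14-null libraries 311, 283, 352, 342 and 290 CPM. The groups overlapped, with WT library 1 again the highest. The log2 fold change was -0.16 ± 0.09, and -0.08 without WT library 1. Bcl2a1a held 80.2, 64.2, 63.6, 64.6 and 62.7 CPM in WT and 64.3, 63.8, 66.8, 67.4 and 64.9 CPM in P2ry14-null (log2 -0.03 ± 0.06). Apart from WT library 1, its 9 values lay within 62.7 to 67.4 CPM, and without that library the log2 fold change was 0.04. Bcl2a1d averaged 58.9 ± 6.99 CPM in WT and 54.8 ± 5.97 CPM in P2ry14-null (SD, n = 5 each). Summed with Bcl2a1c, a short copy that held under 1% of these reads, the A1 genes gave 482 ± 64.1 CPM in WT and 439 ± 38.3 CPM in P2ry14-null (log2 -0.13 ± 0.09; exact permutation p = 0.238). WT library 1 was the highest for the sum too, and without it the log2 fold change was -0.05.

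Transcripts of Bcl2 itself, the founding member of the family, were scarce in these cells (1.77 RPKM). Bcl2 (gene ID 12043) held 17.2, 17.2, 17.1, 18.4 and 15.1 CPM in WT and 14.4, 16.7, 16.2, 13.1 and 16.9 CPM in P2ry14-null libraries, with overlap. Its log2 fold change was -0.14 ± 0.08 (exact permutation p = 0.135), and -0.08 without P2ry14-null library 4, its lowest. Bcl2l1, which encodes BCL-XL, averaged 57.8 ± 4.80 and 56.1 ± 5.49 CPM (WT and P2ry14-null, SD, n = 5 each). Bcl2l2, which encodes BCL-W, averaged 3.48 ± 0.25 and 3.49 ± 0.43 CPM. Its highest value, 4.24 CPM, was in P2ry14-null library 2, and without that library its log2 fold change turned from 0.01 to -0.07.

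The make-up of the pro-survival transcripts was alike from library to library. Of the summed RPKM of the 7 genes, Mcl1 gave 57.0 to 60.4% in WT and 56.7 to 60.7% in P2ry14-null libraries. The 3 Bcl2a1 copies together gave 38.5 to 42.1% and 38.2 to 42.3%. Bcl2l1 gave 0.769 to 0.973% and 0.766 to 1.10%, and Bcl2 with Bcl2l2 gave 0.154 to 0.199% and 0.162 to 0.224%. The ranges of the genotypes overlapped for each of these shares. The shares describe transcripts and not proteins, and they depend on how reads shared by the Bcl2a1 copies were counted, which is not given.

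**Figure D3:**
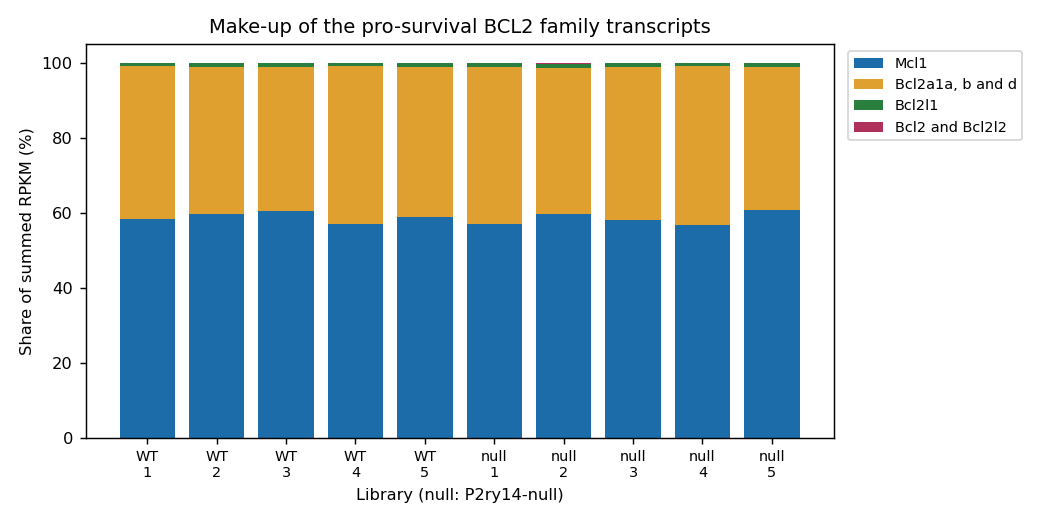
Share of the summed RPKM of the 7 pro-survival BCL2 genes (y axis, percent) taken by Mcl1, the 3 Bcl2a1 copies, Bcl2l1, and Bcl2 with Bcl2l2, in each of the 10 libraries (x axis). Mcl1 takes between 56.7 and 60.7% and the Bcl2a1 copies between 38.2 and 42.3% in every library.

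The pro-death effectors were at near-equal levels in both genotypes. Bax (gene ID 12028) held 55.7, 47.8, 40.5, 45.2 and 44.2 CPM in WT and 48.7, 45.3, 44.5, 45.5 and 47.3 CPM in P2ry14-null. The P2ry14-null values all lay inside the WT range, and the log2 fold change was -0.01 ± 0.07 with an interval from -0.17 to 0.14. Bak1 (gene ID 12018) held 80.6, 71.6, 68.4, 69.2 and 75.9 CPM in WT and 78.1, 75.6, 75.4, 70.6 and 67.9 CPM in P2ry14-null (log2 0.01 ± 0.06). The third effector gene, Bok, was near the detection limit.

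All 7 BH3-only genes that were tested had a log2 fold change below 0, from -0.25 to -0.02, and none passed the test. Of all genes tested, 48.8% lay below 0. The signs hung on single libraries for Bid, Bad, Bmf, Pmaip1 and Bbc3. With 1 library left out, these reached 0.01, 0.003, 0.15, 0.01 and 0.004. The median of the 7 was -0.04. Pmaip1 (gene ID 58801), which encodes NOXA, the BH3-only partner of MCL1, was the most abundant of them per kilobase. Pmaip1 took 56.5 to 62.5% of the summed BH3-only RPKM in WT and 56.8 to 62.4% in P2ry14-null. Its WT libraries held 207, 182, 212, 200 and 174 CPM and its P2ry14-null libraries 201, 159, 181, 199 and 204 CPM. These ranges overlapped, at a log2 fold change of -0.05 ± 0.08. Bid, whose product links death receptors to mitochondria after cleavage by caspase-8, averaged 74.0 ± 4.37 CPM in WT and 72.9 ± 2.999 CPM in P2ry14-null (SD, n = 5 each). Bbc3, which encodes PUMA, averaged 27.2 ± 2.505 and 26.5 ± 1.31 CPM, and Bad, whose product is kept inactive by survival kinases, 13.8 ± 1.248 and 13.4 ± 0.87 CPM.

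Bcl2l11 and Bmf were the BH3-only genes that varied most between libraries among those above 1 CPM. Bcl2l11 (gene ID 12125) encodes BIM, which drives death on cytokine withdrawal. It held 49.5, 46.9, 47.2, 64.9 and 43.0 CPM in WT and 38.8, 36.02, 48.6, 53.7 and 40.5 CPM in P2ry14-null. Library 4 was the highest of each genotype, and the groups overlapped. The log2 fold change was -0.21 ± 0.12 (exact permutation p = 0.198). Without WT library 4 it was -0.09, and without P2ry14-null library 4 it was -0.30. Bmf, described because of its spread and so chosen after its values were seen, held 10.4, 7.19, 17.8, 9.36 and 15.7 CPM in WT and 11.01, 13.8, 9.07, 16.2 and 9.09 CPM in P2ry14-null. Its coefficient of variation was 37.0% in WT and 26.3% in P2ry14-null, against 4.12 to 16.9% for the other BH3-only genes above 1 CPM. The Bmf log2 fold change of -0.03 ± 0.23 became 0.15 without WT library 3. Bik held 0.221, 0.318, 0.325, 0.198 and 0.261 CPM in WT and 0.104, 0.234, 0.272, 0.249 and 0.224 CPM in P2ry14-null (log2 -0.25 ± 0.23). Its lowest value was in P2ry14-null library 1, the shallowest library.

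Of the 6 genes for death receptors, ligands and adaptors, 5 had a log2 fold change above 0, the median was 0.06 and none passed the test. Of all genes tested, 48.8% lay below 0. The receptor genes themselves were split, with Fas at -0.07 and Tnfrsf10b at 0.05. Fadd (gene ID 14082; chromosome 7, 144578323 to 144582436, minus strand), the adaptor that joins the receptors to caspase-8, had the smallest p of them. It held 6.27, 6.56, 6.02, 6.34 and 6.91 CPM in WT and 7.34, 7.60, 6.43, 6.88 and 7.40 CPM in P2ry14-null. P2ry14-null libraries 1, 2 and 5 lay above every WT library, and libraries 3 and 4 lay within the WT range. Fadd averaged 6.42 ± 0.34 CPM in WT and 7.13 ± 0.47 CPM in P2ry14-null (SD, n = 5 each). Its log2 fold change was 0.15 ± 0.07 (edgeR adjusted p = 0.999; exact permutation p = 0.040, not adjusted), and between 0.13 and 0.20 over the alternatives. In the annotation Fadd shares 239 of its 3903 exon bases with Faddos on the other strand. As the strand setting of the counting is not given, reads of the pair within that stretch cannot be told apart.

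Fas (gene ID 14102), the receptor gene of the group with the highest RPKM, held 79.2, 68.3, 70.9, 63.6 and 69.8 CPM in WT and 72.5, 63.1, 67.0, 73.2 and 60.5 CPM in P2ry14-null. The groups overlapped at a log2 fold change of -0.07 ± 0.07. Cflar (gene ID 12633) encodes c-FLIP, which blocks caspase-8 at the receptor. It held 90.7, 90.9, 116, 89.8 and 104 CPM in WT and 99.3, 102, 110, 102 and 104 CPM in P2ry14-null. All P2ry14-null values lay within the WT range (log2 0.07 ± 0.07, and 0.14 without WT library 3). Tnfrsf10b, the mouse TRAIL receptor gene, averaged 8.11 ± 0.78 and 8.39 ± 0.57 CPM in WT and P2ry14-null (SD, n = 5 each). The ligand genes were low: Tnfsf10 (TRAIL) averaged 1.46 ± 0.25 and 1.502 ± 0.38 CPM, and Fasl 0.190 ± 0.072 and 0.219 ± 0.058 CPM. Tnfsf10 and Fasl were highest in P2ry14-null library 2 (2.06 and 0.305 CPM). Without that library the log2 fold change of Tnfsf10 turned from 0.04 to -0.10.

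Caspase and apoptosome genes lay close to equal between the genotypes. Their log2 fold changes ran from -0.0004 for Casp6 to 0.06 for Casp9, with a median of 0.04. Casp8 (gene ID 12370), the initiator caspase of the death receptors, held 111, 106, 99.5, 108 and 111 CPM in WT and 113, 108, 111, 109 and 109 CPM in P2ry14-null. The groups overlapped, and the log2 fold change of 0.04 ± 0.04 had the narrowest interval of the 32, from -0.05 to 0.13. Apaf1 (gene ID 11783), the scaffold of the apoptosome, held 141, 151, 183, 165 and 164 CPM in WT and 166, 162, 164, 175 and 165 CPM in P2ry14-null. Casp9 (gene ID 12371), its initiator caspase, held 43.6, 46.4, 50.1, 41.4 and 51.2 CPM and 48.6, 50.5, 47.8, 47.7 and 47.4 CPM. For both, every P2ry14-null value lay within the WT range, with log2 fold changes of 0.05 ± 0.06 and 0.06 ± 0.06. Casp2 averaged 41.4 ± 5.21 CPM in WT and 42.1 ± 1.24 CPM in P2ry14-null, and Casp6, an effector caspase gene, 10.9 ± 0.59 and 10.9 ± 0.97 CPM (SD, n = 5 each).

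Birc3 had the smallest p of the 32 genes tested. It encodes cIAP2, a ubiquitin ligase of TNF receptor signalling and a known target gene of NF-kB. Birc3 (gene ID 11796; chromosome 9, 7848699 to 7873210, minus strand) held 416, 347, 359, 402 and 348 CPM in WT and 340, 296, 324, 357 and 330 CPM in P2ry14-null. Of the P2ry14-null libraries, only library 4 reached into the WT range. Birc3 averaged 374 ± 32.5 CPM in WT and 330 ± 22.5 CPM in P2ry14-null (SD, n = 5 each). The log2 fold change was -0.18 ± 0.07 (edgeR adjusted p = 0.999; exact permutation p = 0.032, not adjusted), with an interval from -0.33 to -0.04. Over the alternatives it ran from -0.22 to -0.14, and the smallest adjusted p was 0.219, in DESeq2 with the replicate number as a block. Among 16 further NF-kB response genes the median log2 fold change was -0.23, all 16 lay below 0 (48.8% of all genes did) and none passed. By edgeR 9 of the 16 were lower at an unadjusted p under 0.05, beside 2.67% of all genes. Their summed level was 16464 to 20761 CPM in WT and 14515 to 17662 CPM in P2ry14-null. For 9 heat shock genes, which respond to cell handling, these sums were 932 to 1352 CPM and 549 to 1177 CPM (median log2 fold change -0.50). All 9 were lower at that unadjusted p, and none passed adjustment. Both lists were chosen with earlier results of these data known. Within genotypes, Birc3 had an r of 0.66 with the mean log2 CPM of the NF-kB genes (permutation p = 0.053, adjusted 0.356) and of 0.19 with that of the heat shock genes (permutation p = 0.60, adjusted 0.955). Without the 2 libraries farthest from the median of each score, these r were 0.79 and 0.47. Whether NF-kB or cell handling bears on the level of Birc3 was not tested.

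The other IAP genes and the IAP antagonists had log2 fold changes from -0.04 to 0.04. Birc2 (gene ID 11797), which encodes cIAP1 and is the neighbour of Birc3 with a gap of 11.6 kb, held 85.2, 78.7, 89.2, 87.5 and 75.2 CPM in WT. Its P2ry14-null libraries held 75.8, 73.0, 82.8, 86.9 and 86.3 CPM, overlapping WT (log2 -0.04 ± 0.06). Xiap (gene ID 11798), the direct inhibitor of caspases, held 81.9, 88.5, 128, 82.9 and 86.9 CPM in WT and 85.8, 94.0, 100, 105 and 95.8 CPM in P2ry14-null. WT library 3 was far above the other WT libraries, and without it the log2 fold change moved from 0.04 ± 0.11 to 0.18 (edgeR adjusted p = 0.447). Diablo (gene ID 66593), which encodes the IAP antagonist SMAC, held 26.8, 26.8, 24.0, 24.5 and 24.9 CPM in WT and 25.1, 25.1, 25.2, 23.9 and 24.3 CPM in P2ry14-null (log2 -0.04 ± 0.05). Htra2, a mitochondrial protease with the same IAP-binding role, averaged 16.2 ± 0.74 and 16.1 ± 0.54 CPM (SD, n = 5 each). Diablo and Htra2 share 1448 of 6166 and 1288 of 2946 exon bases with genes on the other strand. Within these stretches their reads cannot be told from those genes.

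**Figure D4:**
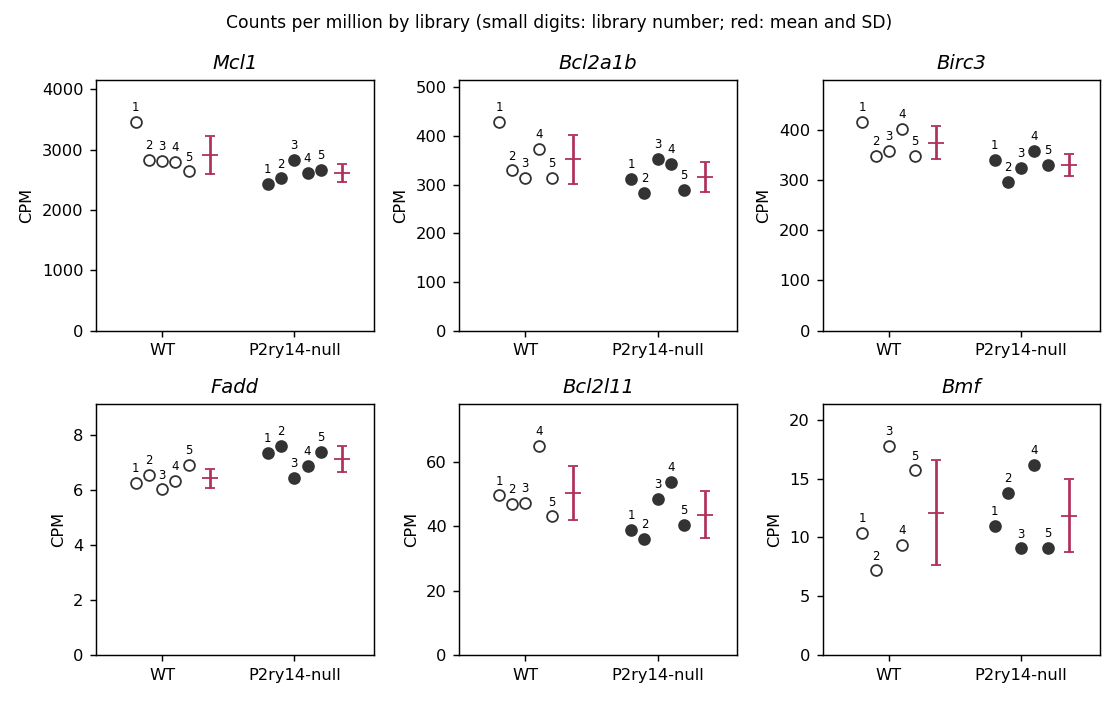
CPM in each library (y axis, from 0) for Mcl1, Bcl2a1b, Birc3, Fadd, Bcl2l11 and Bmf, with WT as open and P2ry14-null as filled points, library numbers beside them, and the mean with SD in red (n = 5 each). The groups overlap in all 6 panels, WT library 1 is highest for Mcl1, Bcl2a1b and Birc3, and Bmf has the widest relative spread.

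Genes around this core were read from 7 further lists of 74 genes, of which 72 were tested and 0 passed in either direction. At an unadjusted p under 0.05 there was 1 of 72, Gsdme, higher in P2ry14-null, beside 4.13% of all genes (1.46% higher in P2ry14-null). The median over the 72 was -0.02. In each list the 2 genes with the smallest p are given as values. Among 14 TNF receptor and necroptosis genes these were Mlkl, the pore-forming effector of necroptosis (log2 0.11 ± 0.05), and Zbp1, a nucleic acid sensor (-0.24 ± 0.15, and -0.11 without WT library 1). Of 12 tested BCL2 relatives and mitochondrial factors they were Bcl2l13 (0.07 ± 0.04) and Tmbim6 (-0.08 ± 0.05). Among 10 genes of execution and DNA cleavage they were Dffa, the inhibitor of the caspase-activated DNase (0.05 ± 0.04), and Acin1 (-0.05 ± 0.05).

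Of 10 genes in the p53 arm, the pair was Cdkn1a, the cell cycle inhibitor p21 (528 CPM in WT and 472 in P2ry14-null, log2 -0.16 ± 0.08), and Sesn2 (-0.07 ± 0.05). For 6 inflammatory caspase and pyroptosis genes it was Gsdme, which encodes a gasdermin (18.6 ± 1.02 against 20.9 ± 1.93 CPM, SD, n = 5 each; log2 0.16 ± 0.07; exact permutation p = 0.056), and Casp1 (-0.10 ± 0.08, and -0.02 without WT library 1). In the 6 other IAP and IAP-related genes it was Xaf1, which is not itself an IAP gene (-0.16 ± 0.13), and Naip2 (0.03 ± 0.05). Of the 14 survival kinase and FOXO genes it was the 14-3-3 genes Ywhaz (-0.11 ± 0.06) and Ywhae (-0.08 ± 0.06). When 1 library was left out, 30 of these 72 genes turned sign and 39 moved by over 1.5 times with the same sign, all but Mlkl, Dffa and Gsdme. Median log2 fold changes of the 7 lists ran from -0.04 to 0.04.

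How the apoptosis genes varied among replicates was set beside 2 scores, the mean log2 CPM of the heat shock list and of the NF-kB list, with group means removed. Of the 64 relations computed over 10 libraries, 0 passed Benjamini-Hochberg adjustment by Pearson's r or by Spearman's rho. With the NF-kB score, Bcl2l11 had the r farthest from 0, 0.85 (permutation p = 0.011, adjusted 0.217; rho = 0.71, permutation p = 0.035, adjusted 0.557). Without WT library 4 and P2ry14-null library 3, the 2 farthest from the median of the score, its r was 0.69. Bcl2a1b (r = 0.71, permutation p = 0.040, adjusted 0.320) and Bcl2a1d (r = 0.68, permutation p = 0.056, adjusted 0.356) came next, at 0.69 and 0.79 without those libraries, with rho of 0.61 (permutation p = 0.076, adjusted 0.626) and 0.79 (permutation p = 0.019, adjusted 0.557). The strongest negative relation to the NF-kB score was that of Bcl2l2 (r = -0.74, permutation p = 0.014, adjusted 0.217; rho = -0.75, permutation p = 0.022, adjusted 0.557), at -0.50 without those libraries. Birc3 followed Bcl2a1d among the positive ones, with r = 0.66 and 0.79 without them (rho = 0.64, permutation p = 0.076, adjusted 0.626). With the heat shock score the highest positive r were 0.78 for Bcl2a1d (permutation p = 0.0081, adjusted 0.217), 0.66 for Bcl2a1b (permutation p = 0.012, adjusted 0.217) and 0.57 for Mcl1 (permutation p = 0.025, adjusted 0.265). Their rho were 0.64, 0.55 and 0.58 (permutation p = 0.092, 0.089 and 0.108, each adjusted to 0.626), and without P2ry14-null libraries 3 and 5 their r were 0.74, 0.64 and 0.78. WT library 1 stayed in these r. It was the highest library for Bcl2a1d, Bcl2a1b and Mcl1, and its heat shock score was 5.74, against 5.35 to 5.41 in the other WT libraries. The r without WT library 1 were not computed. Fadd ran the other way (r = -0.72, permutation p = 0.039, adjusted 0.320; rho = -0.76, permutation p = 0.032, adjusted 0.557), at -0.49 without P2ry14-null libraries 3 and 5.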

How the data were processed

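The deposited table holds raw counts for each gene in 10 libraries, with positions on mm10. STAR 2.5, Subread, featureCounts 1.5.0-p1 and DESeq2 are named in the submitters' processing notes. How strand and reads with more than 1 match were treated, and the annotation, is not given in the sources used here.

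Counts were fitted with edgeR 4.0.16 in R 4.3.3 (TMM, default low-count filter, quasi-likelihood F test, genotype alone, Benjamini-Hochberg over 15586 genes, threshold 0.05), and the fit was tested on simulated data. CPM and RPKM use TMM-scaled library sizes, and RPKM uses the union of GENCODE release M21 exons. SE is the absolute log2 fold change over the root of F, and 95% intervals use the test's degrees of freedom. Single genes were compared on log2 CPM (prior count 2) by a two-sided exact permutation test, whose smallest p is 0.0079. Relations used 100000 permutations within groups. DESeq2 1.42.0, other scaling, no filter, a replicate block and leaving out single libraries were the alternatives. Deviations from the group means correlated between -0.093 and 0.094 for libraries of equal number, so numbers were not taken as pairs. No 2 libraries of a group agreed within sampling noise.

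Members and lists were chosen with earlier results of these data known. Values in every library are given, per role group, for the 3 genes with the highest RPKM and the 3 with the smallest p. For this rule the effectors and BH3-only genes form 1 group. Other genes are given as means or ranges. From each further list the 2 genes with the smallest p are given. All 34 deposited positions overlapped the gene of that symbol in GENCODE, and 8 of the 34 share exon bases with a gene on the other strand. These are Bcl2, Bak1, Bid, Bad, Fadd, Casp9, Diablo and Htra2.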

Additional observations from a re-analysis of the deposited data

Results flagged for a closer look

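In 64 sets of 5 libraries (32 genes in 2 genotypes), 1 library lay far from the other 4 in 5 sets, by the gap to its nearest neighbour divided by the range of the set. Chance gives about 1 in 20. Mcl1 stood at 3464 CPM in WT library 1, against 2636 to 2828 CPM in the other WT libraries. Bcl2a1a stood at 80.2 CPM in the same library, against 62.7 to 64.6 CPM. Xiap stood at 128 CPM in WT library 3, against 81.9 to 88.5 CPM. Bcl2l2 stood at 4.24 CPM in P2ry14-null library 2, against 3.14 to 3.42 CPM, and Bik at 0.104 CPM in P2ry14-null library 1, against 0.224 to 0.272 CPM.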

How the results depend on the processing

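The number of apoptosis and survival genes called stayed 0 under every alternative run: other scaling, no filter, DESeq2, either tool with the replicate block, and leaving out each library. The number of all genes called was 6, with the replicate block in edgeR also 6, in DESeq2 19 and in DESeq2 with the replicate block 45. With single libraries left out it ran from 3 to 5. The cause was not tested. The replicate block changed no call among the apoptosis and survival genes. Of the 32 genes, 17 kept the sign of their log2 fold change in every alternative, 10 below 0 and 7 above. The number below 0, 20 of 32 with all libraries, dropped to 16 when WT library 1 was left out and was 24 when WT library 4 was. The median of the pro-survival group moved from -0.10 to -0.03 without WT library 1 and to -0.14 without P2ry14-null library 3. The sum of the Bcl2a1 rows (log2 -0.13), like Bcl2a1b (log2 -0.16), stayed below 0 without any 1 library, from -0.17 to -0.05 for the sum, a range added after seeing the data. A length from the deposited table was not used because the table has no length column. With the longest transcript as gene length, chosen after seeing the data, the same 6 genes had the highest levels, and ranks shifted by at most 3. Counts under 60 reads per library limit Bik, Fasl and Bok.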

Other observations

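The spread between libraries was larger in WT than in P2ry14-null for 22 of the 32 genes by coefficient of variation, with medians of 9.12% and 6.81%. Over all 15586 genes this held for 65.4%, with medians of 10.9% and 7.67%, so the apoptosis genes lay near the background. Without WT library 1 it held for 17 of 32 and for 57.8% of all genes. WT library 1 had the highest CPM of the 10 libraries in 12 of the 32 genes (18.5% of all genes) and WT library 3 in 8 (15.1% of all genes).

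Several of these genes are neighbours in the genome. Cflar (c-FLIP) and Casp8, which its product blocks, lie in the same orientation on chromosome 1 with a gap of 36.02 kb. In CPM, Cflar was highest in WT library 3 and Casp8 was lowest of all libraries there, a pairing picked after seeing the data. Genes on other chromosomes also had their extremes in WT library 3. Xiap, Apaf1, Casp2 and Bmf were highest there, and Bax, Bad, Fadd and Htra2 were lowest. Whether Cflar and Casp8 vary together was not tested.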
